A study of Homo sapiens with 6 samples.

Results

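The killer cell lectin-like receptor (KLR) genes KLRK1, KLRC1, KLRC2, KLRC3, KLRC4 and KLRD1 were followed in 2 human lung cancer cell lines, H23 and A549. These 6 genes of the 27968 in the deposited tables had been named from their levels in H23 against A549 in these same libraries. Their differences between the lines are therefore given as a description, with no test. The label under which they were grouped, receptor genes expressed in H23, held for KLRC2, KLRC3, KLRK1 and KLRC4. It did not hold for KLRC1, which had at most 3.10 estimated counts in an H23 library, and KLRD1 was present in H23 only at a trace. KLRC4-KLRK1, a readthrough transcript that joins a pair of these genes, is described with them.

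Total RNA was taken from 3 independent cultures of each line. Neither line had been treated, per the labels. H23 was grown in the medium labelled RPM1640 and A549 in DMEM, each with 10% fetal bovine serum, so that line and medium cannot be told apart. Strand was kept in library construction, after depletion of ribosomal RNA. Both are established lung adenocarcinoma lines, and 1 line stands for each side of the comparison.

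The KLR genes encode C-type lectin-like receptors of natural killer (NK) cells and of some T cells, and lie side by side in the natural killer gene complex on chromosome 12. The NKG2 chains encoded by KLRC1 (NKG2A, inhibitory), KLRC2 (NKG2C, activating) and KLRC3 (NKG2E) pair with CD94, the product of KLRD1, and the NKG2A and NKG2C pairs recognise HLA-E. KLRK1 encodes NKG2D, an activating receptor that works as a homodimer with the adaptor HCST (DAP10) and binds the stress-induced ligands MICA, MICB and the ULBP proteins. NKG2C signals through the adaptor TYROBP (DAP12), and KLRC4 encodes NKG2F, which is less well understood.

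The receptor chains are close relatives in sequence, which bears on how reads were divided between them. The first 120 coding bases of 3 of them, from the GENCODE transcripts, are shown for that reason, with capitals at bases that differ from KLRC2.
KLRC2: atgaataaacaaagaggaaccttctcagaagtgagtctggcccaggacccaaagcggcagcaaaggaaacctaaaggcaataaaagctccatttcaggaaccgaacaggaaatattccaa
KLRC3: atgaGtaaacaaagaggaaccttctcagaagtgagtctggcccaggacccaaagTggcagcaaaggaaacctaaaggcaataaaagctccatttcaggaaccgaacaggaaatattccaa
KLRC1: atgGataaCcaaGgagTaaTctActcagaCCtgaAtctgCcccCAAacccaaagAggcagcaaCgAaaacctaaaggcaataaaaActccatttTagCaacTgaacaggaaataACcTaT

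KLRC3 differed from KLRC2 at 2 of these bases and KLRC1 at 24. Over the whole aligned coding sequence KLRC2 was 91.4% identical to KLRC3 and 87.1% identical to KLRC1. Of all runs of 50 bases in the KLRC2 transcript, 43.0% also occurred in another of these transcripts, 26.4% in KLRC1 and 18.0% in KLRC3. Runs of 100 bases were shared for 11.8% of KLRC2 and 3.34% of KLRC3, and mean fragments of the libraries were 168.8 to 189.6 bases long. Every 100-base run of KLRK1 occurred in the readthrough transcript, as did 44.8% of those of KLRC4. No 50-base run of KLRD1 was shared. The values of KLRC2 and KLRC3, and those of KLRK1, KLRC4 and the readthrough, therefore carry an uncertainty of division, and their sums are given below as well.

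Promoter windows, 250 bases before to 50 after a RefSeq start on GRCh38.p14, were held for KLRC3, KLRC4 and KLRC1. Those of KLRC3 and KLRC4 are shown because both genes were read in H23 and were near absent or absent in A549. The letters TATAAA were searched on both strands, and matches are in capitals (they appear here as the reverse-strand reading).
KLRC3, chr12:10420546-10420845, minus strand: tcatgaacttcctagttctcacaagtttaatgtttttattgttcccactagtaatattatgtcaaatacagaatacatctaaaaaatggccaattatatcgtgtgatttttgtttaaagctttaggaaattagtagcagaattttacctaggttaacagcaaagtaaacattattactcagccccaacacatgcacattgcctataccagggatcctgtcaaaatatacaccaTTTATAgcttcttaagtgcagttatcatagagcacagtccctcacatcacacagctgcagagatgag
KLRC4, chr12:10409708-10410007, minus strand: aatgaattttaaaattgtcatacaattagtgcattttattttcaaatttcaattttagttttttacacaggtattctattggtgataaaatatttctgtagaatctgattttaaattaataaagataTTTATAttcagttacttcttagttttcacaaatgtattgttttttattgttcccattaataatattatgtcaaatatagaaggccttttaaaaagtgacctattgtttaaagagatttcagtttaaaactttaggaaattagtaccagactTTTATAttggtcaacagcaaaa

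KLRC3 held 1 match and KLRC4 held 2, and 11.5% of the 35116 windows of all genes hold at least 1. None of the 3 windows of KLRC1 held one. Short motifs named CCAAT, RUNX, AP-1, T-box and GATA were searched too. KLRC3 held 1 CCAAT match and KLRC4 held 2, and 34.6% of all windows hold at least 1. Neither held a RUNX, AP-1, T-box or GATA match, which 13.1%, 7.71%, 0.98% and 10.3% of all windows hold. Of these motifs, CCAAT was in 1 KLRC1 window, and AP-1 and GATA in another. The KLRC3 and KLRC4 windows aligned over 159 columns with 79.9% identity. They contained 1 and 0 CpG dinucleotides, against a median of 14 over all windows. The windows of KLRC1 were as poor, with 1, 0 and 3. Windows of neighbouring genes ranged widely, with 4 in CLEC2D, 6 in MAGOHB, 18 in GABARAPL1, 32 in YBX3, and 30 and 0 in the pair of KLRG1 windows.

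The libraries held 29395795 to 42421642 estimated counts in H23 and 23399562 to 25348083 in A549. H23 replicate 1 stood apart from the other H23 libraries. Its rank correlation with them was 0.973, against 0.997 between replicates 2 and 3, so values that rest on it are also given without it. Levels between the lines are in CPM, counts scaled to a common library size with normalisation by the trimmed mean of M-values (TMM), and levels between genes are in the deposited TPM, which account for transcript length. In bulk RNA, fewer expressing cells and less RNA per cell cannot be told apart. Of the 15426 genes tested with edgeR's quasi-likelihood test, 77.2% differed at an adjusted p of 0.05, 39.6% being higher in H23 and 37.6% higher in A549. The median log2 difference, H23 over A549, of all tested genes was 0.029. With 3 cultures against 3, an exact two-sided permutation test of a single value cannot go below 0.1.

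Of the 6 KLR genes, 4 passed the filter on low counts, each through its H23 libraries alone, and KLRC1 and KLRD1 did not. In those 4, every H23 library lay above every A549 library. The same held for 41.4% of all tested genes, and since the members were chosen on this contrast nothing is read from the count. KLRK1 and KLRC4 had no count in any A549 library, a pattern with a call in H23 that 1.37% of tested genes showed.

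KLRC2, the activating NKG2C chain, was the most abundant. It measured 47.1, 27.5 and 29.6 CPM in H23 replicates 1 to 3, and 0.208, 0.160 and 0.0862 CPM in A549. The H23 libraries all lay far above the A549 libraries, and replicate 1 was the highest of them. The mean was 34.7 ± 10.7 CPM (SD, n = 3) in H23 and 0.151 ± 0.0612 CPM (SD, n = 3) in A549. The ratio of pooled CPM was 230, with an exact 95% counting interval of 129 to 462. Counting intervals here cover counting error only. Without H23 replicate 1 the H23 mean was 28.6 ± 1.49 CPM (SD, n = 2).

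KLRC3, the NKG2E chain, came next. It measured 22.97, 18.9 and 16.1 CPM in the H23 libraries, while A549 replicate 1 had 0.0416 CPM from 1 count and the other A549 libraries had none. All H23 values lay above all A549 values, and the H23 mean was 19.3 ± 3.44 CPM (SD, n = 3). The ratio to A549 was 1390, with an interval of 249 to 54951 that reflects the single A549 count. Without H23 replicate 1 the H23 mean was 17.5 ± 1.96 CPM (SD, n = 2).

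KLRC1, the inhibitory NKG2A chain, had 2.08, 0 and 3.10 estimated counts in H23 and none in A549. Both lines were at or near a floor of 3 counts per library, and no fold is given. That floor corresponds to 0.0706 to 0.1002 CPM in H23 and 0.120 to 0.129 CPM in A549. KLRD1, the CD94 partner of the NKG2 chains, had 17, 6 and 18 counts in H23 and none in A549. Its H23 level was 0.358 ± 0.137 CPM (SD, n = 3), at least 8.96-fold higher than a floor of 3 counts over the A549 group. KLRD1 was thus read in every H23 library, but at 0.20, 0.09 and 0.20 TPM.

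KLRK1, encoding NKG2D, measured 5.33, 2.11 and 1.79 CPM in H23 and 0 in A549. Replicate 1 was 2.73 times the mean of the other H23 libraries, the widest gap among the members. The H23 mean was 3.08 ± 1.96 CPM (SD, n = 3) with replicate 1 and 1.95 ± 0.230 CPM (SD, n = 2) without it. Against 3 counts over the A549 group the level was at least 74.5-fold higher, or at least 46.3-fold higher without H23 replicate 1. KLRC4, encoding NKG2F, measured 1.40, 0.895 and 1.06 CPM in H23 and 0 in A549. Its mean was 1.12 ± 0.259 CPM (SD, n = 3), at least 27.2-fold above the same 3 counts over the A549 group. The readthrough transcript KLRC4-KLRK1 measured 1.70, 0.368 and 0.946 CPM in H23 and 0 in A549, at least 25.2-fold higher. Without H23 replicate 1 its H23 mean of 1.004 ± 0.666 CPM (SD, n = 3) became 0.657 ± 0.409 (SD, n = 2) and its bound 17.0-fold, while KLRC4 was at 0.975 ± 0.114 and KLRD1 at 0.312 ± 0.158 CPM.

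Sums over relatives do not depend on how reads were divided among the genes within a sum. Between the sums below, some 50-base runs were shared, 7.38% of those of KLRC4 occurring in KLRC2 and 7.26% in KLRC3. No 100-base run of KLRC4 occurred in either. The counts of KLRC1, KLRC2 and KLRC3 added up to 2654, 1389 and 1947 in H23 and to 6, 4 and 2 in A549, each sum lying within 0.01 of a whole number. The ratio for this sum was 327, with a counting interval of 187 to 634. The sum of KLRC4, KLRK1 and the readthrough was 319, 101 and 161.01 counts in H23 and 0 in A549, at least 127-fold higher. Without replicate 1 that bound was 87.2-fold, and the H23 mean of 5.20 CPM became 3.58 CPM.

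Among the members the order of levels in H23 was read from TPM. KLRC2 had 66.46, 42.31 and 45.82 TPM and KLRC3 had 39.78, 36.41 and 31.58 TPM. The ranges of these 2 genes did not overlap, and KLRC2 was above KLRC3 in each library, by 1.67, 1.16 and 1.45 times. KLRK1 had 5.52, 2.39 and 2.03 TPM and KLRC4 had 2.72, 1.89 and 2.25 TPM. These ranges overlapped, and in replicate 3 KLRC4 was above KLRK1, so the order of this pair is not settled. The readthrough was estimated at 1.40, 0.33 and 0.86 TPM, below KLRC4 and KLRK1 in each library, and then came KLRD1 and KLRC1. Every 100-base run of KLRK1 occurs in the readthrough, so the place of the readthrough rests on the estimated division of reads.

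KLRC2 and KLRC3 together made up 92.6%, 94.7% and 94.4% of the summed TPM of the 6 genes. KLRD1 amounted to 0.188%, 0.114% and 0.258% of the TPM of KLRC2 and KLRC3 together. KLRC2 was 332, 470 and 229 times KLRD1 in TPM, so that transcripts of the NKG2 chains far outnumbered those of their CD94 partner in each H23 library. Protein was not measured. In the ranking of all tested genes by TPM, KLRC2 stood at percentiles 79.8 to 87.1 in the H23 libraries and KLRC3 at 74.5 to 80.2. KLRK1 stood at percentiles 26.3 to 41.5.

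KLRC3 has 2 annotated transcripts, and both were read in every H23 library. NM_002261, the NKG2-E form, took 97.64%, 87.43% and 83.36% of the gene's transcripts, and NM_007333, the NKG2-H splice form, the remaining 2.36%, 12.57% and 16.64%. Replicate 1 had the lowest share of NM_007333. Of the 9 KLRD1 transcripts, 3 received counts in H23 and 1, NM_001351060, did so in all 3 libraries. Of the 5 KLRC1 transcripts, 2 received counts, neither of them in all 3 libraries. KLRK1, KLRC2 and KLRC4 have 1 transcript each in the annotation used. By the estimated division of reads, which is uncertain for this pair, the readthrough made up 20.2%, 12.1% and 29.8% of the summed TPM of KLRK1 and the readthrough.

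**Figure D1:**
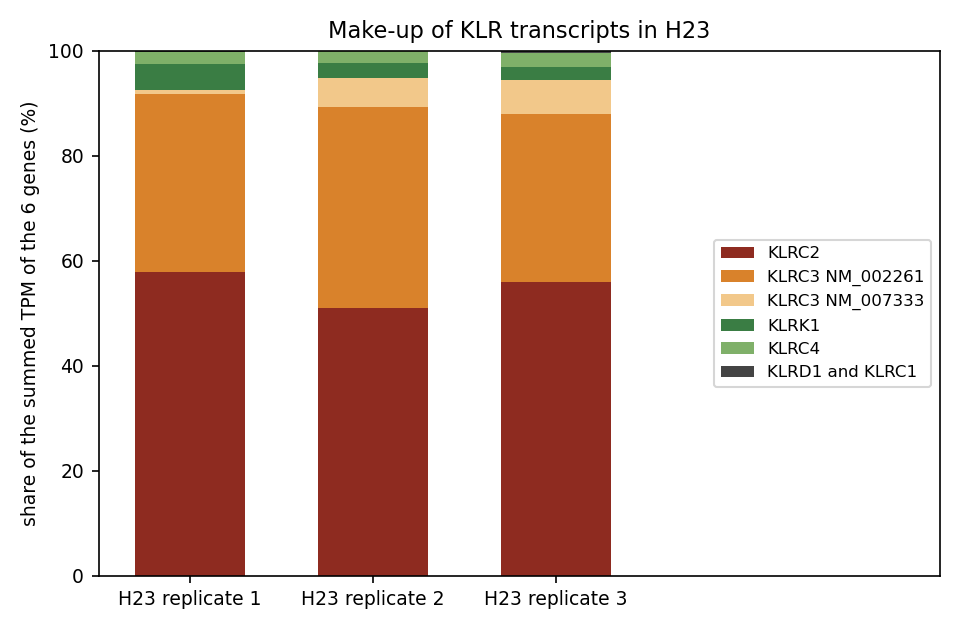
Share in percent of the summed TPM of the 6 KLR genes taken by each gene, with KLRC3 split into its 2 transcripts, as stacked bars for the 3 H23 libraries. KLRC2 and KLRC3 fill 92.6% to 94.7% of each bar, and NM_007333 is thinnest in replicate 1.

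Several genes next to the KLR block were also higher in H23. Between KLRG1 and ETV6, a window set with the data known, 69 other genes were in the tables and 26 were tested. Of these 26, 18 (69.2%) were higher in H23, 2 were higher in A549 and 6 passed in neither direction, beside 39.6% and 37.6% of all tested genes. Without H23 replicate 1, 18 were higher in H23 and 4 higher in A549. The median log2 difference with all libraries was 0.87. Among the 10 genes on each side of the block, 8 were tested and 6 were higher in H23, with a median log2 difference of 3.31. Some genes higher in H23, among them OLR1, TMEM52B, STYK1 and KLRF1, had at most 10 counts in any A549 library. They passed the low-count filter through their H23 libraries, which set their direction. The share and median of the whole window include all of them.

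On the KLRD1 side, GABARAPL1, an autophagy protein of the Atg8 family, measured 365 ± 11.4 CPM (SD, n = 3) in H23 and 19.0 ± 0.782 in A549. Its log2 difference was 4.26 ± 0.08 (SE; edgeR adjusted p = 1.69e-07). TMEM52B, a transmembrane protein gene, measured 39.9 ± 0.319 CPM in H23 and 0.0703 ± 0.0638 in A549, a log2 difference of 9.09 ± 0.33 (edgeR adjusted p = 1.14e-06). OLR1, a lectin-like receptor for oxidised low-density lipoprotein, measured 115 ± 22.6 CPM in H23 and 0.347 ± 0.0916 in A549, a log2 difference of 8.36 ± 0.25 (edgeR adjusted p = 5.73e-07). These 3 genes had no A549 library above any H23 library. CLEC7A and CLEC1A, farther along, were near 0 and were not tested.

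On the KLRC1 side, EIF2S3B and LINC02446 were low in both lines, and EIF2S3B did not pass the test (log2 difference -0.56, edgeR adjusted p = 0.426). The lectin-like pseudogene KLRA1P measured 2.26 ± 0.789 CPM in H23 and 0.657 ± 0.287 in A549 (edgeR adjusted p = 0.00459). MAGOHB, a gene of the exon junction complex, had a log2 difference of 0.57 ± 0.27 (edgeR adjusted p = 0.0885). STYK1, a kinase-like gene, measured 32.8 ± 3.21 CPM in H23 and 0.263 ± 0.0964 in A549, a log2 difference of 6.94 ± 0.22 (edgeR adjusted p = 6.04e-07). YBX3, a cold-shock domain protein gene named after its values were seen, had a log2 difference of 2.35 (edgeR adjusted p = 1.03e-06). MAGOHB passed the test without H23 replicate 1, at a log2 difference of 0.18 (edgeR adjusted p = 0.00924), and without H23 replicate 2, at 0.76 (edgeR adjusted p = 0.038).

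Other receptor genes of the complex were mostly silent or low. Of 17 lectin neighbours in the list, with the readthrough among them, 6 were tested and all 6 were higher in H23, beside 39.6% of all tested genes, with a median log2 difference of 1.60. These 6 are part of the 18 genes higher in H23 between KLRG1 and ETV6 and are no separate result. KLRF1 and OLR1, with 0 and 25 counts over the A549 group, passed the low-count filter through their H23 libraries. KLRF1 (NKp80) measured 1.07 ± 0.312 CPM in H23 and no count in A549, at least 25.8-fold higher (edgeR adjusted p = 0.000562). CLEC2D, a ligand gene for KLRB1, had a log2 difference of 1.43 (edgeR adjusted p = 0.00423). KLRG1 had 0.69 (edgeR adjusted p = 0.0225) and CLEC2B, the ligand gene for KLRF1, had 0.79 (edgeR adjusted p = 0.0469). The call for CLEC2B was lost with H23 replicate 1 or 2 or A549 replicate 2 or 3 left out (edgeR adjusted p = 0.077 to 0.172). That for KLRG1 was lost without H23 replicate 2, A549 replicate 1 or A549 replicate 2 (edgeR adjusted p = 0.0593 to 0.0904). KLRB1, CLEC2A, CLEC12A, CLEC1B and CLEC9A had no count in any library.

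**Figure D2:**
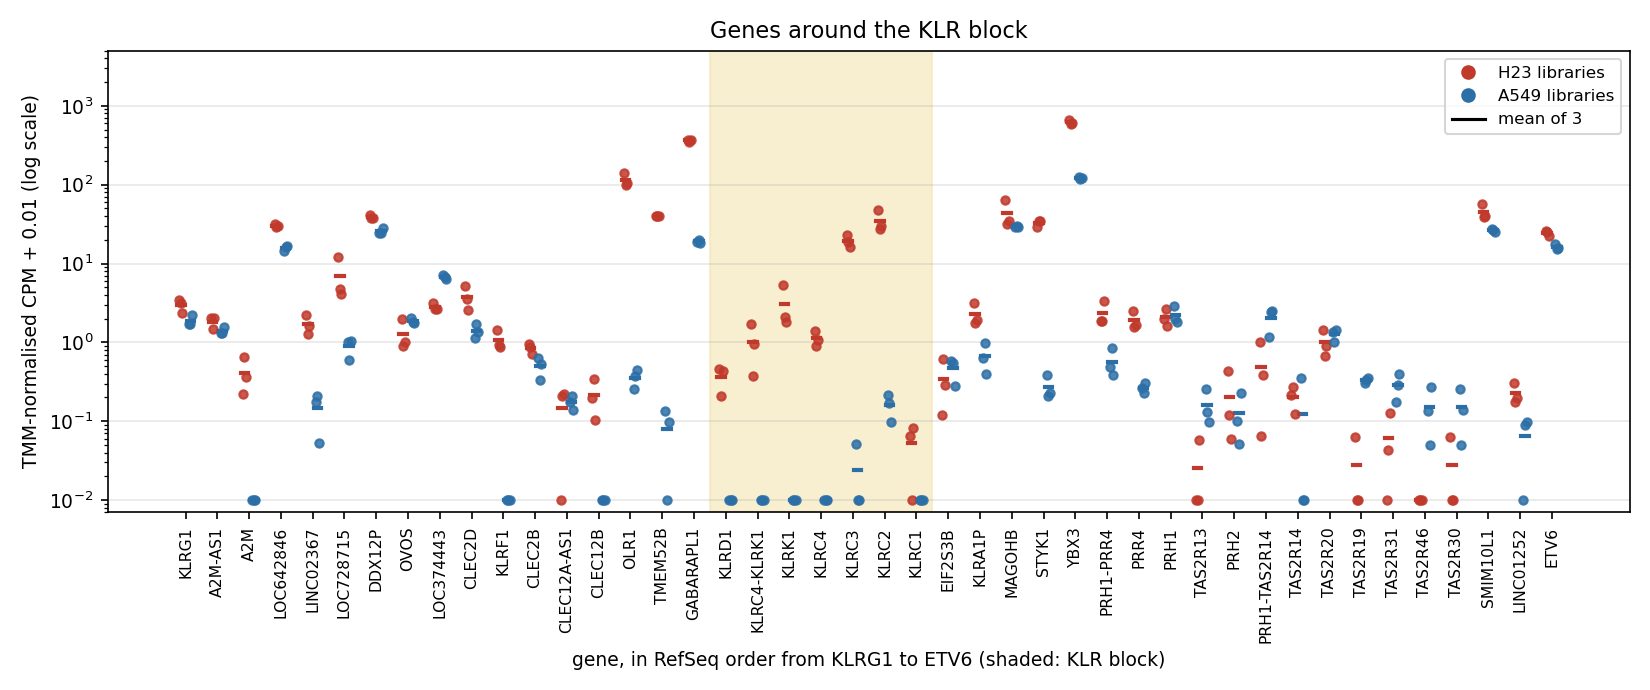
TMM-normalised CPM plus 0.01, on a log axis, of genes from KLRG1 to ETV6 in RefSeq order, for the KLR block (shaded) and for other genes that reach 0.2 CPM in a library; points are libraries and bars are means of 3. OLR1, TMEM52B, GABARAPL1 and STYK1 lie well above A549 in H23 on the 2 sides of the block, while EIF2S3B and MAGOHB lie close to A549.

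Of the adaptors that carry the signals of these receptors, HCST was read at a low level in H23 and TYROBP was near 0. HCST (DAP10), the partner of NKG2D, had 16, 6 and 13 counts in H23 and 3, 3 and 2 in A549, and did not pass the filter on low counts. Its level was 1.86, 0.95 and 1.48 TPM in H23, below that of KLRK1 in each library, and 0.29 to 0.40 TPM in A549. The ratio of pooled CPM was 2.87, with an exact 95% counting interval of 1.31 to 7.16. TYROBP (DAP12), the partner of NKG2C, had 0, 1 and 1 counts in H23 and none in A549, at most 0.14 TPM. SYK, ZAP70 and LCP2, which act downstream in lymphocytes, were also untested, and LCP2 was at 0 throughout. FCER1G, an adaptor of other NK receptors, measured 0.708 ± 0.429 CPM in H23 and 0.0687 ± 0.0222 in A549 (edgeR adjusted p = 0.0034). It passed the low-count filter through its H23 libraries.

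Over the list of 34 adaptor and signalling genes, 28 were tested, 14 were higher in H23 and 10 higher in A549, with 85.7% called in either direction. Over all tested genes the shares were 39.6%, 37.6% and 77.2%, so the list lay near the background. Its median log2 difference was 0.31. Those higher in H23 included CBL, a ubiquitin ligase, with a log2 difference of 1.98, and PTPN6, the phosphatase SHP-1, with 1.67. PLCG1, a phospholipase, had 1.63 and LAT, a T cell linker protein, 1.61. Kinases of the Src family were mixed. LYN and SRC were lower in H23, by log2 differences of -2.04 and -1.27 (edgeR adjusted p = 2.36e-06 and 0.000455). FYN was higher in H23 at 1.53 (edgeR adjusted p = 0.000381), YES1 did not pass (-0.65, edgeR adjusted p = 0.127) and LCK was not tested. Subunits of the phosphoinositide 3-kinase, which HCST recruits, went both ways. PIK3R1 was lower in H23 at -1.34 (edgeR adjusted p = 0.000777) and PIK3CA at -1.61 (edgeR adjusted p = 0.0206). PIK3R2, PIK3CB and PIK3CD were higher in H23, at 1.53, 1.54 and 0.59 (edgeR adjusted p = 0.000207, 7.18e-05 and 0.0039). The call for PIK3CA was lost without H23 replicate 2 (edgeR adjusted p = 0.0652) or A549 replicate 2 (0.0519).

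Ligands of the receptors were expressed in both lines. HLA-E, the ligand of the CD94 pairs, measured 111, 141 and 148 CPM in H23 and 55.8, 55.8 and 57.4 in A549. Its log2 difference was 1.24 ± 0.12 (edgeR adjusted p = 8.61e-05), and replicate 1 was the lowest H23 library. Among NKG2D ligands, MICB measured 98.2 ± 7.82 CPM in H23 and 12.6 ± 0.287 in A549, a log2 difference of 2.97 (edgeR adjusted p = 7.16e-07). MICA had a smaller log2 difference of 0.55 (edgeR adjusted p = 0.00132). ULBP1, ULBP2 and ULBP3 were higher in H23 by 3.28, 2.38 and 1.40 on the log2 scale. RAET1E and RAET1G were lower in H23, with log2 differences of -5.07 and -3.54 (edgeR adjusted p = 0.000106 and 9.9e-06). RAET1E passed the low-count filter through its A549 libraries. Of the 8 ligands tested, 6 were thus higher in H23 and 2 higher in A549, beside 39.6% and 37.6% of all tested genes. RAET1L was near 0 in both lines.

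Genes that load HLA-E and other class I molecules were also mostly higher in H23, 10 of 11 tested, beside 39.6% of all tested genes. HLA-B and HLA-C had log2 differences of 7.72 and 3.56. TAP2, a peptide transporter subunit, had 2.40 and TAP1 had 2.32. CANX, a chaperone of the endoplasmic reticulum, was the exception at -1.19 (edgeR adjusted p = 7.53e-06). Class I genes are close relatives that vary between individuals, and the split of their reads between genes is uncertain.

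Transcription factors that act in NK and cytotoxic T cells were higher in H23 for 18 of 28 tested, and higher in A549 for 5, with a median log2 difference of 0.98. That is 82.1% called, beside 77.2% of all tested genes, of which 39.6% were higher in H23 and 37.6% higher in A549. LEF1 was at 7.31 ± 1.22 CPM in H23 and had no count in A549, at least 177-fold higher (edgeR adjusted p = 3.22e-05). GATA3 had a log2 difference of 5.64, RUNX3 of 3.88 and TOX2 of 3.65. IKZF3 was at 4.05 ± 1.11 CPM in H23 and at 0 in A549, at least 98.6-fold higher. TBX21 (T-bet), a driver of cytotoxic programmes, was at 0.598 ± 0.171 CPM and at 0, at least 14.9-fold higher. EOMES, its relative, did not pass (log2 difference 0.54, edgeR adjusted p = 0.0941). It passed without H23 replicate 1, at 0.69 (edgeR adjusted p = 0.0146). LEF1, IKZF3 and TBX21, which are among the 18, passed the low-count filter through their H23 libraries, and that set their direction. STAT5A, STAT4, PRDM1 and STAT5B were lower in H23, with log2 differences of -4.62, -4.49, -2.58 and -1.48.

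Markers of T and NK cells were mostly absent. Of 21 markers of these cells, 12 had no count in any H23 library, namely PTPRC, CD2, CD3D, CD3E, CD3G, CD247, GZMA, GZMB, GZMK, PRF1, NCR1 and KIR2DL4. Their summed level was 10.5 to 14.4 CPM in H23 and 1.32 to 1.91 CPM in A549. CD8A, with 6.97 ± 0.557 CPM in H23, and CD7, with 2.80 ± 1.21, were the 2 markers that reached 1 TPM in every H23 library. NKG7 had 0, 0 and 1 counts and GNLY 0, 3 and 0 counts in H23. Over the longer list of 51 T and NK genes, 7 were tested, 5 were higher in H23 and 1 higher in A549, beside 39.6% and 37.6% of all tested genes. The 5 higher genes were CD7, CD8A, IL7R, FCER1G and CCL5, the last at 21.8 ± 7.74 CPM in H23. All 5 had at most 9 counts in any A549 library and passed the low-count filter through their H23 libraries. The filter thus set their direction, and nothing is read from their number. Of 18 markers of B, myeloid, erythroid and endothelial cells, 5 were tested, 1 was higher in H23 and 1 higher in A549, beside the same shares. All 6 epithelial markers reached 1 TPM in every library of both lines, but KRT7 did so in H23 only just, at 1.11 to 1.36 TPM. The keratin KRT7 measured 1.18 ± 0.111 CPM in H23 and 3562 ± 48.5 in A549, a log2 difference of -11.56 (edgeR adjusted p = 4.04e-08). KRT19 measured 4.68 ± 0.633 CPM in H23 and 61.8 ± 1.91 in A549, a log2 difference of -3.72 (edgeR adjusted p = 9.14e-07). KRT8 measured 1493 ± 30.7 CPM in H23 and 2186 ± 62.2 in A549 (edgeR adjusted p = 0.000276), while its TPM values in the lines overlapped. EPCAM and CDH1, epithelial adhesion genes, were higher in H23, by log2 differences of 0.91 and 1.43. NKX2-1, a lung lineage factor, was read in H23 at 2.95 ± 0.432 CPM and had no count in A549, at least 69.8-fold higher, and the surfactant genes SFTPA1 and SFTPC were at 0 in H23.

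**Figure D3:**
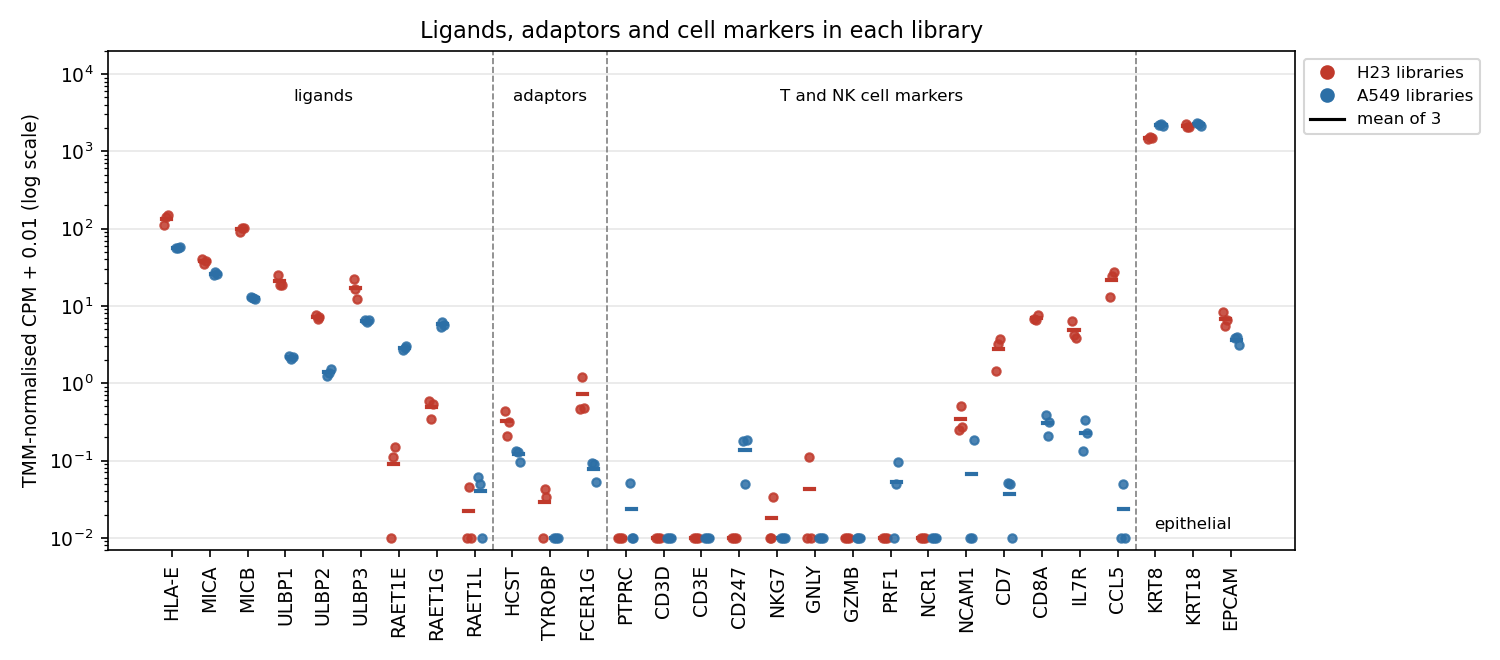
TMM-normalised CPM plus 0.01, on a log axis, of ligands, adaptors, T and NK cell markers and epithelial markers in each library; points are libraries, bars are means of 3, and points at 0.01 are libraries with no count. HLA-E, MICA and MICB are present in both lines, HCST is low, TYROBP is at or near 0, and PTPRC, CD3D, CD3E and NCR1 have no count in H23.

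The genes with the profile most like the members over the 6 libraries were ZNF347, MAL2, FREM2, ST8SIA6-AS1 and HMX1. Likeness was the Euclidean distance of log2(CPM + 0.1) to the median profile of the 4 members that passed the filter, and was 0.427, 0.518, 0.546, 0.568 and 0.637. The H23 means of those 4 members ran from 1.12 to 34.7 CPM, so the median profile lay between their levels and was that of no member. A gene close to a single member could thus lie farther away, such as KLRF1 at 1.07 CPM beside KLRC4 at 1.12 CPM. The 5 genes nearest to the median profile all lie on chromosomes other than 12. They measured 5.15 to 13.6 CPM in H23 libraries, with no count in A549 except 0.0416 CPM of MAL2 in 1 library.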

How the data were processed

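RNA-seq of 3 cultures per line was quantified by the submitters with STAR 2.6.0c and RSEM 1.3.0 on hg19, per the submitters' processing notes. The deposited tables hold, per the file headers, estimated counts (expected counts, not scaled to depth), TPM and FPKM as RSEM wrote them, and per transcript its percent of the gene's transcripts. Lengths in the same tables served only for the mean fragment length, read from length and effective length of the KLR transcripts. The grouping came from the sample titles, and 1 line's file numbers differ from its title numbers, of which the titles were used.

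Expected counts were rounded and tested with edgeR 4.0.16 (R 4.3.3; robust quasi-likelihood test, TMM, default low-count filter, Benjamini-Hochberg adjustment over 15426 genes). The running of the test was checked on simulated counts with far fewer changed genes and no outlying library. That check therefore does not bear on error rates in these data. DESeq2 1.42.0 and limma 3.58.1 on log2(TPM + 1) or log2(TPM + 0.1) were alternatives. FPKM was not used. Fold bounds use 3 counts over the group. Sequences came from GENCODE transcripts and RefSeq windows on another build than the files, so no file coordinates are given. The members, lists and window were chosen with earlier results of these data known. Named genes were those with the largest change, up to 4 per list and direction with a mean of at least 1 TPM, the ligands, set adaptors and markers, the 5 nearest neighbours each side and the 5 most alike profiles. KLRG1, CLEC2B, YBX3, IKZF3, TBX21, EOMES, TAP1, FCER1G, SYK, ZAP70, LCP2 and markers at 0 were named after their values were seen. The same holds for FYN, YES1, LCK, PIK3R2, PIK3CB and PIK3CD. Cultures are taken as independent, per the labels; p-values measure the spread between these cultures. A gene that the naming rule selects is not reported here.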

Additional observations from a re-analysis of the deposited data

How the results depend on the processing

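Over the other settings tried, the 11910 genes differing ranged from 11037 to 13774, and none of the results reversed. Log2(TPM) alternatives and upper quartile scaling moved the median of all genes to 0.405, 0.543 and 0.158. The split of 6109 higher to 5801 lower in H23 became 8334 to 3868 with limma on log2(TPM + 1) and 8367 to 3862 on log2(TPM + 0.1). Around the block, in a window chosen after seeing the data, 20 genes were called, 18 to 22 on leaving out a library and 27 without the low-count filter. The T and NK list gave 10 calls (8 in H23) without the filter, against 6, because more genes were tested. Leaving out a library, the lectin list gave 4 to 6 calls, the flanking list 7 to 9, the signalling list 20 to 27, the ligands 8, the class I loading list 10 to 11, the T and NK list 6 and the factors 21 to 25. KLRC3 had a log2 difference of 12.26 without A549 replicate 1 and 10.07 with it, resting on 1 count, and the levels of KLRK1 and its summed relatives rest on H23 replicate 1. KRT8 lost its call with limma on TPM. CLEC2B also lost its call with DESeq2 (adjusted p = 0.11). MAGOHB and EOMES passed with upper quartile scaling and on TPM. The cause of these changes was not tested.

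Replicate numbers did not pair the cultures: deviations of same-numbered libraries correlated at 0.025, -0.0389 and 0.0544, and not every library correlated best with its own number. With the number as a block, 11691 genes and 18 genes around the block were called. The block gave 4 calls in the lectin list, where KLRG1 (edgeR adjusted p = 0.0532) and CLEC2B (0.082) no longer passed, 7 in the flanking list, 24 in the signalling list, 8 ligands, 11 class I loading genes, 22 factors and 6 T and NK genes. Without H23 replicate 1, which stood apart, calls higher in H23 against higher in A549 were 5 to 0 in the lectin list, 15 to 12 in the signalling list, 6 to 2 among ligands, 10 to 1 among class I loading genes, 18 to 7 among factors and 5 to 1 among T and NK genes.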
